A study of Homo sapiens with 30 samples.

Results

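The nuclear-encoded subunits of the mitochondrial respiratory chain and of the ATP synthase were followed through 2 routes into senescence of WI-38 cells, a diploid fibroblast line from human lung that is widely used in senescence work. The members are array features whose single gene symbol begins with NDUFA, NDUFB, NDUFC, NDUFS, NDUFV, UQCR, COX4, COX5, COX6, COX7, COX8 or ATP5, or is SDHA, SDHB, SDHC, SDHD or CYC1. The rule used names and no measured value. It matched 90 features, from which 9 names of NDUFAF assembly factors, 2 antisense names and 4 pseudogene names were left out. The other 75 features stand for 74 genes, because NDUFB2 has a pair of features and is represented by the brighter one, out of 52329 features in the series, 21055 of which carry a single gene symbol. Complex I has 32 of these genes, complex II 3, complex III 8, complex IV 13 and the ATP synthase 18. The names also take in ATP5IF1, an inhibitor of the ATP synthase, and UQCRHL and ATP5MGL, near copies of UQCRH and ATP5MG whose probes may also read their parent genes, so that values of these copies are uncertain. A further 9 features carry several symbols with a name of the rule among them and were not used. NDUFS8, UQCRFS1, SDHB and NDUFA4 were not analysed here, nor were the subunits encoded by mitochondrial DNA.

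Complexes I, III and IV pass electrons from NADH to oxygen and pump protons out of the mitochondrial matrix, complex II feeds in electrons from succinate without pumping, and the ATP synthase lets the protons back to make ATP. Each complex except complex II mixes subunits of mitochondrial DNA with nuclear subunits that are imported, so that nuclear and mitochondrial output have to be matched. Senescent fibroblasts are known for enlarged mitochondrial networks and altered respiration, and the nuclear genes of the chain are classical targets of the transcription factors NRF1, GABP and YY1.

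Total RNA was measured on 30 Affymetrix HTA 2.0 arrays, 2 in each of 15 groups. In the RAF course, cells with a doxycycline-inducible RAF received 100 ng/ml doxycycline and are labelled 12 h, 24 h, 48 h, 72 h and 96 h, with T0 as their reference. The replicative course took cells to exhaustion of growth in 21% oxygen. Its labels are 144 h, 264 h and 432 h, then 624 h, 792 h and 1008 h, and last 1368 h and 2112 h, again with T0 as their reference. Cells of the line were grown in 3% oxygen and 5% carbon dioxide. The labels do not date the change of oxygen, so every comparison with replicative T0 may also hold the step in oxygen. Every comparison of a later RAF group with RAF T0 also holds doxycycline, since no later RAF group lacks it. The RAF replicates are described as biological. Nothing of the kind is said of the replicative arrays, so their p-values may reflect technical spread only.

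Several arrays stood apart from what their labels would lead one to look for. The mean level of 26 mitosis genes, relative to their mean over the 30 arrays, was -1.43 log2 units in the arrays labelled RAF T0, 1.14 in those labelled RAF 96 h, 1.85 in those labelled replicative T0 and 1.39 in those labelled replicative 2112 h. The first principal component of all features set 12 arrays apart from the other 18, namely the replicative arrays of T0 and of all labels from 624 h to 2112 h. Values also spread more widely across features in those 12 arrays (SD 1.694 to 1.725) than in the other 18 (SD 1.644 to 1.674). Of the hours on the sample labels, 432 h and 624 h are missing from the submitters' account of the replicative design. Whether labels were exchanged or arrays were normalized in separate runs was not tested, and either would change what every difference between labels means. Groups are therefore named by their labels throughout, and comparisons across that division (144 h against T0, 624 h against 432 h and 2112 h against 144 h in the replicative course, and the comparison of the T0 groups) are also given after quantile normalization. Partner arrays correlated at 0.9921 to 0.9969, and for 28 of 30 arrays the partner was the most similar array. The fibroblast genes COL1A1, COL1A2 and VIM read 10.1 to 11.5, 9.8 to 11.8 and 11.5 to 12.1 in the 30 arrays. The defining markers EPCAM and CDH1 (epithelium), CDH5 (endothelium) and CD3E (T cells) read 3.7 to 4.0, 4.7 to 4.9, 5.2 to 5.4 and 4.8 to 5.2. Markers did not all follow that division, since CD68, KRT18, CNN1 and TEK stood at percentiles 98.2, 94.6, 94.4 and 90.6 of all features and the fibroblast marker S100A4 stood at percentile 58.1. In bulk RNA, fewer cells of a kind and less RNA per cell cannot be told apart.

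Levels of the respiratory chain genes moved little. The range between the lowest and the highest of a gene's 15 group means ran from 0.15 to 1.2 log2 units, with a median of 0.45, against a median of 0.6 over all features. In 32 of 74 genes it was at least 0.5, and in 3 genes (NDUFB11 with 1.2, COX5B and UQCRHL with 1.1) at least 1. Within the RAF course the median range was 0.2, and within the replicative course 0.4. The median SD between partner arrays was 0.07, less than the 0.1 to which the deposited values are rounded, so that a difference of 0.1 or 0.2 is 1 or 2 rounding steps. At an adjusted p under 0.05 in limma's F-test, 24 of 74 genes (32.4%) changed at some time of the RAF course, where 19.6 percent of all features did. In the replicative course 64 of 74 genes (86.5%) changed, where 74.2 percent of all features did. The RAF count was 14 without replicate 1 of RAF T0. Of the 74 genes 70 had a mean above the median of all features. Shares over all features, here and below, thus include many dimmer features. Shares among features as bright as the chain genes were not computed, and the part of brightness was not tested.

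**Figure D1:**
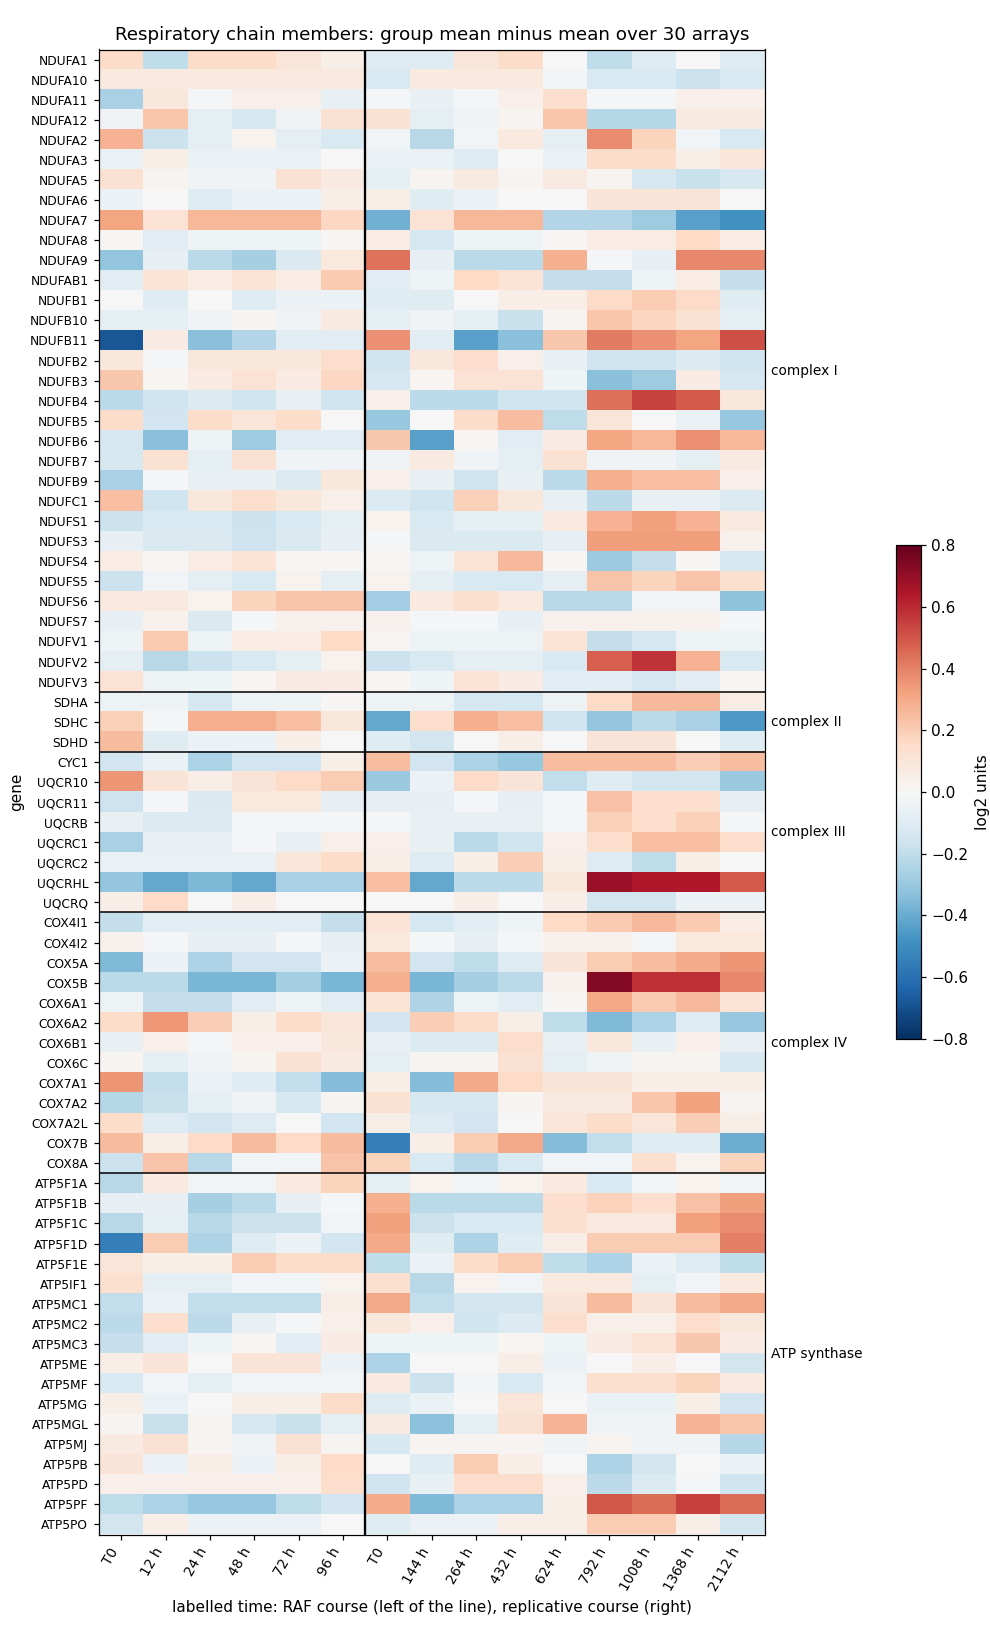
Group means of the 74 genes, each minus that gene's mean over the 30 arrays, in log2 units (colour), with the 15 labelled groups across and the genes by complex down the page. The RAF course is left of the heavy line and mostly pale, with NDUFB11 and ATP5F1D low at RAF T0. In the replicative course COX5B, UQCRHL, NDUFV2 and NDUFB4 are high from 792 h to 1368 h.

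Averaged over the 74 genes, the level relative to the 30-array mean was lowest in the arrays labelled replicative 144 h, at -0.107 and -0.0664, and highest in those labelled replicative 1368 h, at 0.0714 and 0.146. The arrays labelled 792 h (0.0646 and 0.0633) and 1008 h (0.0687 and 0.0714) were close to the lower of these. The arrays labelled 2112 h stood at -0.00969 and 0.0336. Those labelled replicative T0 stood at -0.000225 and 0.00383, within the span of the 2112 h arrays. In the RAF course the level lay between -0.0637 and 0.0214, lowest in the arrays labelled 24 h and highest in those labelled 96 h. These averages span 0.1953 log2 units between the lowest and highest group, and 0.1467 after quantile normalization.

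**Figure D2:**
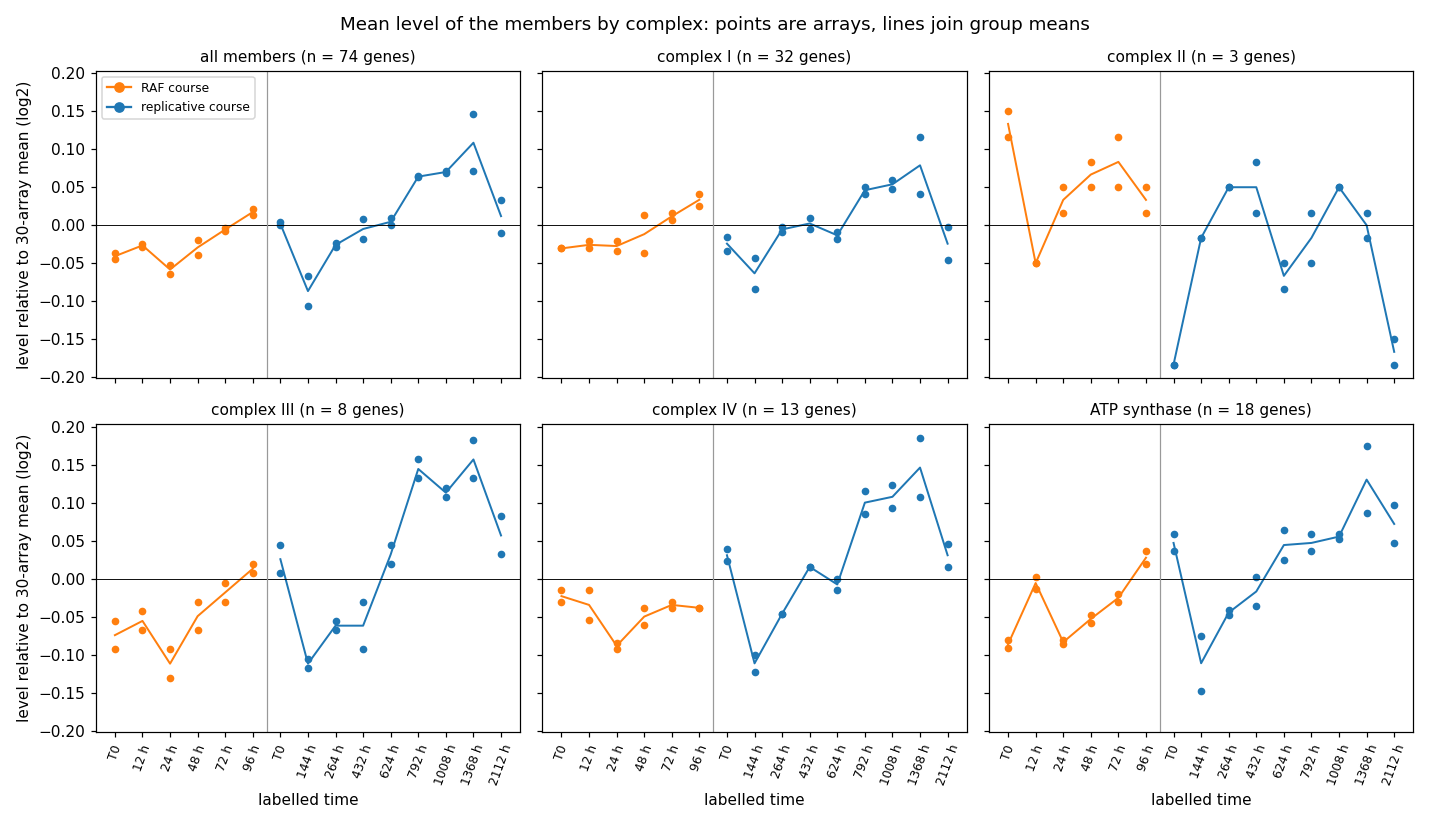
Mean level of the genes of each complex relative to the 30-array mean (log2 units), with points for arrays and lines joining group means, by labelled time. Complexes III and IV and the ATP synthase dip at replicative 144 h and are high at 1368 h, while the 3 genes of complex II are lowest at replicative T0 and 2112 h.

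The comparison of RAF 12 h with RAF T0 sets the earliest labelled time against T0. At 12 h 12 of 74 genes rose (16.2%) and 12 fell (16.2%), where 9.70 percent of all features rose and 9.73 percent fell. The median difference over the 74 genes was 0, as over all features. Of the 24 calls 11 were lost when one or another array was left out, among them those of COX8A, ATP5MC2, NDUFC1, NDUFA1 and NDUFV1. Both directions occurred in complex I (5 rose, 5 fell), complex III (1 and 1) and complex IV (2 and 3), while 2 of 3 genes of complex II fell and 4 of 18 of the ATP synthase rose with 1 falling.

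In complex I, NDUFB11 (feature TC0X000994.hg.1), an accessory subunit of the membrane arm, read 8.6 in both arrays labelled RAF 12 h, against 7.8 and 7.9 in those labelled RAF T0. It rose by 0.75 log2 units (SE 0.07, 1.68-fold, limma adjusted p = 0.000315), and the arrays did not overlap. NDUFA11, another membrane-arm subunit, rose by 0.35 (SE 0.06, adjusted p = 0.00466). NDUFA2, an accessory subunit of the electron-input module, read 6.9 in both 12 h arrays, against 7.3 and 7.4 at T0, a change of -0.45 (SE 0.05, adjusted p = 0.000465). The membrane-arm subunits NDUFC1 and NDUFA1 fell by 0.40 and 0.35 on the log2 scale (adjusted p = 0.00893 and 0.00969). Accessory subunits of complex I thus changed in both directions, and of its measured core subunits NDUFV1, which binds NADH, rose by 0.25 (SE 0.07, adjusted p = 0.0315).

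In complex II, SDHD, a membrane anchor, read 7.2 in both arrays labelled RAF 12 h, against 7.6 and 7.5 in those labelled T0, a change of -0.35 (SE 0.06, adjusted p = 0.00466). The other anchor, SDHC, fell by 0.20 (SE 0.04, adjusted p = 0.0112). The flavoprotein SDHA, the catalytic subunit, read 8.1 in every array of both groups. In complex IV the largest change was that of COX7A1 (feature TC19001463.hg.1), the isoform of subunit 7A best known from heart and skeletal muscle. It read 7.6 and 7.7 in the 12 h arrays, against 8.2 in both T0 arrays, a change of -0.55 (SE 0.07, fold 0.683, adjusted p = 0.00149).

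COX8A, a small membrane subunit of complex IV, read 11.3 and 11.5 in the arrays labelled RAF 12 h, against 11.0 in both T0 arrays, a rise of 0.40 (SE 0.10, adjusted p = 0.0298) that missed the threshold after quantile normalization (0.35, adjusted p = 0.0646). ATP5F1D (feature TC19000032.hg.1), the delta subunit of the central stalk of the ATP synthase, read 9.3 in both 12 h arrays, against 8.5 and 8.6 at T0. It rose by 0.75 (SE 0.06, 1.68-fold, adjusted p = 0.000115), as far as NDUFB11, and the groups did not overlap. ATP5F1A, the alpha subunit, rose by 0.30 (SE 0.03, adjusted p = 0.000477), and ATP5MC2, which codes for the proton-carrying c subunit, by 0.35 (SE 0.07, adjusted p = 0.0128).

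The comparison of RAF 96 h with RAF T0 sets the last labelled time against T0. It shares its T0 arrays with the 12 h comparison. At 96 h 15 of 74 genes rose (20.3%) and 4 fell (5.41%), where 7.97 percent of all features rose and 7.71 percent fell. The 15 were 4 of complex I, 3 of complex III, 3 of complex IV and 5 of the ATP synthase. The 4 that fell were NDUFA2, SDHD, COX7A1 and COX7A2L. The count of 19 was 12 without replicate 2 of RAF T0, and 9 of the 19 calls, those of COX8A, COX7A2, COX7A2L, SDHD, NDUFAB1, UQCRC2, ATP5F1C, ATP5MC1 and ATP5PO, were lost when one or another array was left out.

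NDUFB11 read 8.4 and 8.5 in the arrays labelled RAF 96 h, against 7.8 and 7.9 at T0, a rise of 0.60 (SE 0.07, 1.52-fold, adjusted p = 0.00134). NDUFA9, an accessory subunit near the ubiquinone site, read 7.6 in both 96 h arrays, against 7.2 in both T0 arrays, a rise of 0.40 (SE 0.05, adjusted p = 0.00119). NDUFB9, of the membrane arm, rose by 0.35 (SE 0.05) and NDUFAB1, the mitochondrial acyl carrier protein, by 0.30 (SE 0.06, adjusted p = 0.0127). None of the core subunits NDUFS1, NDUFS3, NDUFS7, NDUFV1 and NDUFV2 passed the test. NDUFA2 stood at 7.0 and 6.9, against 7.3 and 7.4 at T0, a change of -0.40 (SE 0.05, adjusted p = 0.00119).

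In complex III the catalytic CYC1, which carries the heme of cytochrome c1, rose by 0.20 (SE 0.03, adjusted p = 0.00506) and the core proteins UQCRC1 and UQCRC2 by 0.30 and 0.20 (adjusted p = 0.00222 and 0.0146). The call of UQCRC2 was lost in the model of all 30 arrays (adjusted p = 0.056). In the ATP synthase ATP5F1A read 9.3 in both 96 h arrays, against 8.9 in both T0 arrays, a rise of 0.40 (SE 0.03, 1.32-fold, adjusted p = 0.000218). ATP5F1D stood at 8.9 and 9.0, against 8.5 and 8.6 at T0, a rise of 0.40 (SE 0.06, adjusted p = 0.00353). Each of these groups lay fully above its T0 arrays. The gamma subunit ATP5F1C rose by 0.20 (adjusted p = 0.0467), a call that was lost after quantile normalization (0.133, adjusted p = 0.108).

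COX7A1 stood at 7.5 in both arrays labelled RAF 96 h, against 8.2 in both T0 arrays. Its change of -0.70 (SE 0.07, fold 0.616, adjusted p = 0.000693) was the largest among the 74 genes at that time. COX5A, a nuclear subunit of complex IV on the matrix side, read 7.9 in both 96 h arrays, against 7.6 in both T0 arrays, a rise of 0.30 (SE 0.03, adjusted p = 0.000726). COX8A rose by 0.40 (SE 0.10, adjusted p = 0.0374).

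Between these times the values of NDUFB11 were 8.3 and 8.1 at 24 h. They were 8.3 in both arrays of 48 h, while those of 72 h read 8.4 and 8.5. Those of ATP5F1D were 8.8 and 8.9 at 24 h, 9.0 in both arrays at 48 h and 9.0 and 9.1 at 72 h. Both genes were thus higher at 12 h than at any later RAF time and lowest at T0. The arrays labelled 12 h and 96 h were also those with the highest mitosis level of the RAF course (1.48 and 1.14, against -0.80 to -0.31 at 24 h, 48 h and 72 h and -1.43 at T0). The part of cell division in these differences was not tested.

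**Figure D3:**
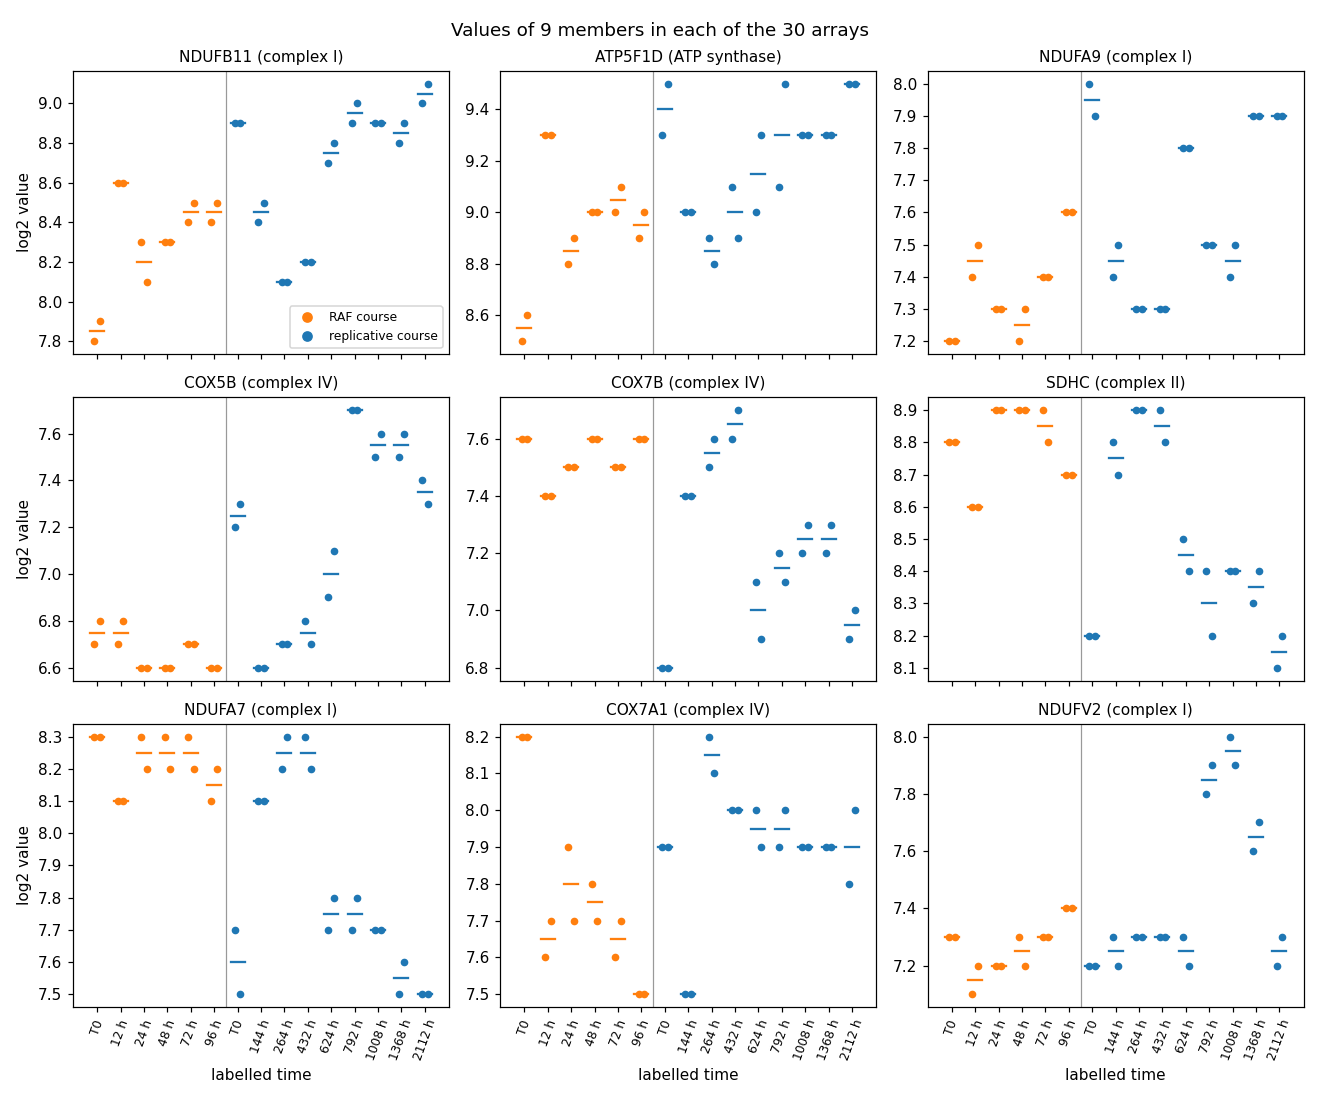
Deposited log2 values of 9 genes in each of the 30 arrays (points, with bars at group means) by labelled time, RAF course on the left of each panel and replicative course on the right. NDUFB11 and ATP5F1D are lowest at RAF T0, COX7B, SDHC and NDUFA7 fall into a high and a low set of groups, and NDUFV2 and COX5B are highest from 792 h to 1368 h.

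The comparison of replicative 144 h with replicative T0 sets the first labelled time of that course against T0. At 144 h 11 of 74 genes rose (14.9%) and 25 fell (33.8%), where 30.1 percent of all features rose and 28.6 percent fell. The median difference was -0.05 over the 74 genes and 0 over all features. In complex IV 7 of 13 genes fell and 2 rose, in the ATP synthase 8 of 18 fell and 2 rose, in complex III 2 of 8 fell and 1 rose, and in complex I 8 of 32 fell and 5 rose. After quantile normalization 14 genes rose and 21 fell, complex I had 5 in each direction, and 30 of the 36 calls were kept.

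Among the genes that fell, NDUFB6, of the membrane arm of complex I, read 5.9 in both arrays labelled 144 h, against 6.6 and 6.5 in those labelled T0, a change of -0.65 (SE 0.07, fold 0.637, adjusted p = 9.63e-06). COX5B (feature TC02000592.hg.1), a zinc-binding subunit of complex IV, read 6.6 in both 144 h arrays, against 7.2 and 7.3 at T0, also a change of -0.65 (SE 0.07, adjusted p = 1.32e-05). ATP5PF, coupling factor 6 of the peripheral stalk of the ATP synthase, read 7.0 and 7.2, against 7.7 and 7.8 at T0, again -0.65 (SE 0.07, adjusted p = 1.8e-05). In these 3 genes the arrays did not overlap. UQCRHL, the uncertain near copy of the complex III hinge gene, showed -0.65 (SE 0.09).

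The F1 head of the ATP synthase did not move as a block. Its beta subunit ATP5F1B, which holds the catalytic sites, read 10.3 and 10.4 at 144 h, against 10.8 and 10.9 at T0, a change of -0.50 (SE 0.07, adjusted p = 0.000104). Its gamma subunit ATP5F1C read 9.7 and 9.8, against 10.2 and 10.3 at T0, also -0.50 (SE 0.06, adjusted p = 1.31e-05). Its alpha subunit ATP5F1A read 9.1 and 9.2, against 9.0 and 9.1 at T0, a difference of 0.10 (adjusted p = 0.139) that passed as a rise after quantile normalization (0.189, adjusted p = 0.0102). The inhibitor ATP5IF1 fell by 0.35 (SE 0.06, adjusted p = 0.000504). NDUFA9 fell by 0.50 (SE 0.05, adjusted p = 7.36e-06) and CYC1 by 0.40 (SE 0.06, adjusted p = 0.000189).

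Among the genes that rose, COX7B (feature TC0X000423.hg.1), an accessory subunit of complex IV, read 7.4 in both arrays labelled 144 h, against 6.8 in both T0 arrays, a rise of 0.60 (SE 0.07, 1.52-fold, adjusted p = 3.43e-05). SDHC (feature TC01001385.hg.1) read 8.8 and 8.7, against 8.2 in both T0 arrays, a rise of 0.55 (SE 0.07, adjusted p = 4.95e-05). NDUFA7, of the matrix arm of complex I, read 8.1 in both 144 h arrays, against 7.7 and 7.5 at T0, a rise of 0.50 (SE 0.07, adjusted p = 0.000104). These genes of complexes IV, II and I thus opposed most of the changed genes of complex IV and the ATP synthase. NDUFS6, a zinc-binding subunit of complex I, and COX6A2 each rose by 0.35. All 26 measured mitosis genes were lower at 144 h than at T0, and of 11 fibroblast markers 10 were higher and 1 lower. The part of either in these differences was not tested.

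The comparison of replicative 2112 h with 144 h leaves out T0. At 2112 h 24 of 74 genes rose (32.4%) and 12 fell (16.2%), where 29.8 percent of all features rose and 30.9 percent fell. After quantile normalization the counts were 21 and 15, with 31 of the 36 calls kept, and complex I turned from 7 rising and 5 falling to 5 and 6. This comparison shares the 144 h arrays with the preceding one. ATP5PF read 7.9 in both arrays labelled 2112 h, against 7.0 and 7.2 at 144 h, a rise of 0.80 (SE 0.07, 1.74-fold, adjusted p = 3.19e-06). COX5B read 7.4 and 7.3, against 6.6 in both 144 h arrays, a rise of 0.75 (SE 0.07, adjusted p = 3.92e-06). NDUFB6 rose by 0.70 (SE 0.07), NDUFB11 by 0.60 (SE 0.06) and UQCRHL by 0.90 (SE 0.09). SDHC read 8.1 and 8.2 at 2112 h, against 8.8 and 8.7 at 144 h, a change of -0.60 (SE 0.07, adjusted p = 2.23e-05), and NDUFA7 changed by -0.60 as well. COX6A2, COX7B and NDUFS6 fell by 0.50, 0.45 and 0.40 on the log2 scale.

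The comparison of replicative 624 h with 432 h spans the division on the first principal component within the course. At 624 h 16 of 74 genes rose (21.6%) and 14 fell (18.9%), where 21.1 percent of all features rose and 24.4 percent fell. After quantile normalization the order turned, with 11 rising and 16 falling and 24 of the 30 calls kept. The count of 30 was 19 without replicate 2 of 432 h. In the ATP synthase 5 genes rose and 1 fell under both scalings. CYC1 read 8.8 in both arrays labelled 624 h, against 8.3 and 8.2 at 432 h, a rise of 0.55 (SE 0.06, 1.46-fold, adjusted p = 3.36e-05). NDUFB11 read 8.7 and 8.8, against 8.2 in both 432 h arrays, also a rise of 0.55 (SE 0.06, adjusted p = 2.16e-05). NDUFA9 rose by 0.50 (SE 0.05) and ATP5F1B by 0.35 (SE 0.07). ATP5PF also rose, with 7.4 and 7.6 at 624 h, against 7.2 in both 432 h arrays, a call lost without replicate 2 of 624 h. COX7B stood at 7.1 and 6.9 at 624 h, against 7.6 and 7.7 at 432 h, a change of -0.65 (SE 0.07, adjusted p = 3.66e-05). NDUFA7, NDUFB5 (membrane arm of complex I), ATP5F1E (epsilon subunit of the central stalk) and SDHC fell by 0.50, 0.45, 0.40 and 0.40.

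Levels of several chain genes did not overlap between the sides of that division, SDHC, CYC1 and NDUFB11 among them. The 3 genes described next were chosen after their values were seen. How many chain genes, or how many of all features, split in this way was not counted. The division is that of all features, so such a split cannot be called particular to these genes. NDUFA10, an accessory subunit of complex I, read 6.8 in all 12 RAF arrays and in the 6 arrays labelled replicative 144 h, 264 h and 432 h. It read 6.5 to 6.7 in the other 12 arrays. COX7B ran from 6.8 to 7.3 in those 12 arrays, against 7.4 to 7.7 in the other 18, and NDUFA7 from 7.5 to 7.8, against 8.1 to 8.3. For COX7B the gap between the sets (7.3 against 7.4) was narrower than its spread within the 12 arrays.

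The arrays labelled 792 h to 1368 h held a set of subunits at their highest levels. The comparisons of replicative 792 h with T0 and of 2112 h with 1368 h were added after the levels by group had been seen. At 792 h 21 of 74 genes rose against T0 (28.4%) and 6 fell (8.11%), where 13.1 percent of all features rose and 11.7 percent fell. The 21 were 11 of complex I, 2 of complex II, 4 of complex III, 2 of complex IV and 2 of the ATP synthase, and 20 rose and 7 fell after quantile normalization. These shares were not set against features of like brightness. NDUFV2 (feature TC18000041.hg.1), an iron-sulfur core subunit of the electron-input module, read 7.8 and 7.9 at 792 h, against 7.2 in both T0 arrays, a rise of 0.65 (SE 0.06, 1.57-fold, adjusted p = 6.03e-06). It read 8.0 and 7.9 at 1008 h, 7.6 and 7.7 at 1368 h, and 7.2 to 7.3 in the arrays labelled 144 h to 624 h and 2112 h. In the RAF course it read 7.1 to 7.4.

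COX5B read 7.7 in both arrays labelled 792 h, against 7.2 and 7.3 at T0, a rise of 0.45 (SE 0.07, adjusted p = 0.000447). UQCRHL rose by 0.45 (SE 0.09) and NDUFB4, a dim membrane-arm gene of complex I, by 0.40 (SE 0.06, adjusted p = 0.000138), with 5.0 in both 792 h arrays, against 4.6 in both T0 arrays. NDUFB5 also rose, with 5.9 in both 792 h arrays, against 5.5 in both T0 arrays. It was not highest at these times, since it read 6.1 and 6.0 at 432 h. The core subunits NDUFS3 and NDUFS1 rose by 0.35 and 0.25 (adjusted p = 0.00289 and 0.0046), and SDHA, at 8.3 in both arrays, against 8.1 in both T0 arrays, rose by 0.20 (SE 0.04, adjusted p = 0.00132). Core subunits did not all follow: NDUFV1 fell by 0.20 (adjusted p = 0.0337), and NDUFS7 read 7.1 in every array labelled T0, 792 h, 1008 h and 1368 h. The call of NDUFV1 was lost whichever array of the 792 h or T0 group was left out, with the difference at -0.20 each time. NDUFA9 read 7.5 in both 792 h arrays, against 8.0 and 7.9 at T0, a change of -0.45 (SE 0.05, adjusted p = 2.69e-05). NDUFA12 and NDUFS4, accessory subunits of the matrix arm, fell by 0.35 and 0.30, and ATP5F1C and ATP5PB, a stalk subunit, by 0.25 each. The calls of NDUFS1, ATP5F1C and ATP5PB were among those lost when one or another array was left out.

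At 2112 h 13 of 74 genes were lower than at 1368 h (17.6%) and 1 was higher (1.35%), where 5.99 percent of all features were lower and 5.60 percent higher. The 13 included NDUFV2 (-0.40, SE 0.06, adjusted p = 0.00111), NDUFB4 (-0.40, SE 0.06), NDUFS3 (-0.30, SE 0.07), NDUFS6 and COX7A2 (-0.30 each), NDUFS1 and SDHA (-0.20 each). NDUFB11 was the gene that rose, by 0.20 (adjusted p = 0.0475). The count of 14 was 4 without replicate 1 of 2112 h, 9 without replicate 2 of 2112 h and 3 without replicate 2 of 1368 h, so that it rests on single arrays. Mitosis genes stood at -1.17 at 792 h, -1.20 at 1008 h and -0.33 at 1368 h, against 1.39 at 2112 h and 1.85 at T0. Hypoxia targets stood at 0.39, 0.31 and 0.30 at those times, against 0.08 at 2112 h and -0.01 at T0, and 10 of 17 rose at 792 h against T0 with 2 falling. Cell type markers moved as well: 7 of 11 fibroblast markers fell at 792 h against T0 and 2 rose, with a mean level of -0.756 at 792 h, -0.552 at 1008 h and -0.342 at 1368 h, against -0.242 at 2112 h and -0.252 at T0. LUM and DCN, extracellular matrix proteoglycans of fibroblasts, changed by -2 and -1.9 and PDGFRB by 1.1. The smooth muscle marker CNN1 changed by -1.95, the endothelial markers PECAM1, TIE1 and TEK by 1.65, 1.05 and -1.15, and CD68, a lysosomal protein used as a macrophage marker, by 1.1. The part of cell division, hypoxia targets or these markers in the levels of the chain genes was not tested.

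Between replicative 2112 h and T0, the ends of the course, 0 of 74 genes passed limma's test in either direction, where 1.34 percent of all features rose and 1.46 percent fell. At an unadjusted p under 0.05 there were 5 of the 74 genes, where 7040 of all 52329 features passed. Differences lay between -0.15 and 0.25 with a median of 0. NDUFB11 read 9.0 and 9.1 at 2112 h, against 8.9 in both T0 arrays. COX7B read 6.9 and 7.0, against 6.8 in both T0 arrays, and COX5B 7.4 and 7.3, against 7.2 and 7.3. No change of a chain gene was thus detectable between the ends with 2 arrays a group.

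**Figure D4:**
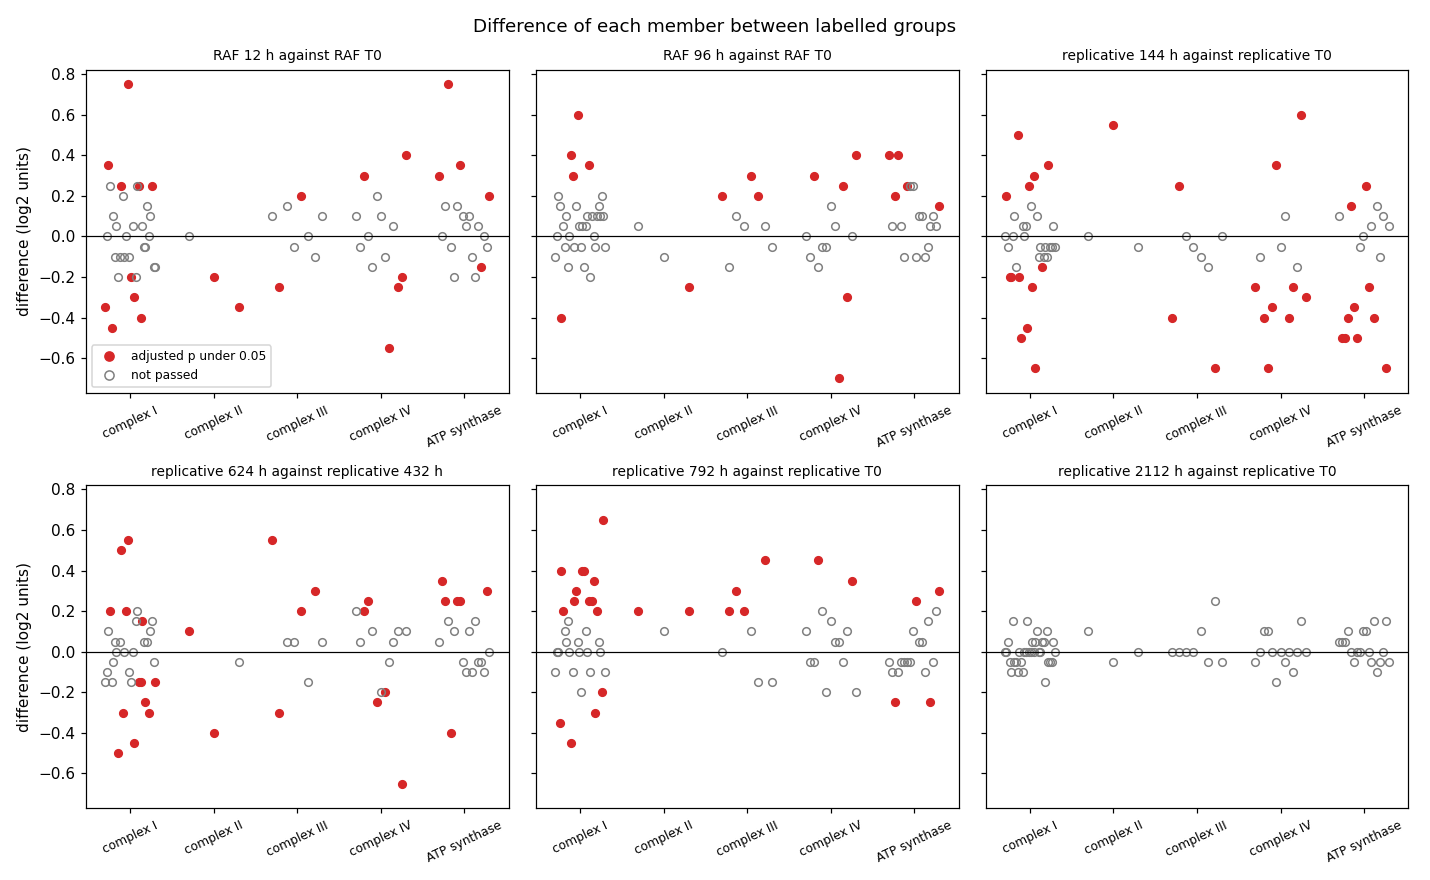
Difference of each of the 74 genes between labelled groups (log2 units, the group named first minus the other) by complex for 6 comparisons, with filled points past an adjusted p of 0.05. Differences reach 0.75 at RAF 12 h, the 792 h panel has 21 filled points above 0, and no point is filled between replicative 2112 h and T0.

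The difference between the effects at the ends of the courses, RAF 96 h against T0 minus replicative 2112 h against T0, was tested in a model of all 30 arrays. It passed for 10 of 74 genes, 6 with a higher RAF effect (8.11%) and 4 with a lower one (5.41%), where 7.00 percent of all features had a higher and 6.66 percent a lower one. NDUFA9 differed by 0.45 (SE 0.07, adjusted p = 0.000162), with an effect of 0.40 in the RAF course and -0.05 in the replicative course. NDUFB11 differed by 0.45 (SE 0.09), with 0.60 and 0.15. ATP5F1A differed by 0.35 (SE 0.07), with 0.40 and 0.05, and NDUFAB1, NDUFB9 and COX7A2 by 0.40, 0.35 and 0.35. COX7A1 differed by -0.70 (SE 0.10, adjusted p = 5.83e-05), with -0.70 in the RAF course and 0 in the replicative course. NDUFA2 and COX7A2L differed by -0.30 each and SDHD by -0.25. The share of the chain genes past this test was close to that of all features.

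The T0 groups differed from each other in more of the chain genes than the ends of either course did, and the same held over all features. Between the T0 groups 58.1% of the chain genes passed, close to the 58.9% of all features. At the ends of the RAF and replicative courses 15.7% and 2.8% of all features passed. The RAF course used cells with an inducible RAF, and the T0 groups lie on opposite sides of the division on the first principal component. Cells, course and a possible separate run of arrays cannot be told apart in this comparison. In the arrays labelled RAF T0, 19 of 74 genes were higher than in those labelled replicative T0 (25.7%) and 24 were lower (32.4%), where 30.7 percent of all features were higher and 28.2 percent lower. After quantile normalization 24 were higher and 22 lower, so that the order turned, with 40 of the 43 calls kept. NDUFB11 read 7.8 and 7.9 in the RAF T0 arrays, against 8.9 in both replicative T0 arrays, a difference of -1.05 (SE 0.07, fold 0.483, adjusted p = 2.04e-10), the largest among the 74 genes in any comparison here. ATP5F1D read 8.5 and 8.6, against 9.3 and 9.5, a difference of -0.85 (SE 0.11), NDUFA9 differed by -0.75 (SE 0.05), COX5A by -0.60 (SE 0.05) and ATP5F1C by -0.55 (SE 0.06). COX7B read 7.6 in both RAF T0 arrays, against 6.8 in both replicative T0 arrays, a difference of 0.80 (SE 0.06, 1.74-fold, adjusted p = 3.68e-09). NDUFA7, the small complex III subunit UQCR10, SDHC and NDUFB5 were higher by 0.70, 0.65, 0.60 and 0.45. The RAF-minus-T0 differences above are thus taken from T0 arrays in which NDUFB11, ATP5F1D and COX5A were the lowest of the 15 groups.

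Isoform pairs of complex IV were set side by side in each comparison. For subunit 4, the hypoxia-responsive isoform COX4I2 read 6.3 to 6.5 in all 30 arrays and passed in none of the 10 comparisons. The common isoform COX4I1 fell at 144 h against T0 (-0.25, SE 0.08, adjusted p = 0.0214), a call lost after quantile normalization. COX4I1 also read 9.4 in both arrays labelled RAF T0, against 9.7 in both arrays labelled replicative T0. For subunit 6A, the common COX6A1 fell by 0.35 and the muscle isoform COX6A2 rose by 0.35 at 144 h against T0. At 2112 h against 144 h COX6A1 rose by 0.35 and COX6A2 fell by 0.50. For subunit 7A, the common COX7A2 rose by 0.25 (SE 0.05, adjusted p = 0.018) and the muscle isoform COX7A1 fell by 0.70 at RAF 96 h against T0. At replicative 144 h against T0 both fell, COX7A2 by 0.25 and COX7A1 by 0.40, and the call of COX7A2 was lost after quantile normalization (adjusted p = 0.0675). COX7A2L, which joins complexes III and IV into supercomplexes, fell by 0.30 at RAF 96 h (SE 0.05, adjusted p = 0.00831).

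Other genes of mitochondrial metabolism, taken from lists chosen with earlier results of these data known, were counted in the same fits. At RAF 96 h, where 7.97 percent of all features rose and 7.71 percent fell, 24 of 74 measured mitochondrial ribosomal proteins rose and 4 fell, 6 of 15 genes of the citric acid cycle and pyruvate dehydrogenase rose and 1 fell, and 6 of 15 genes of mitochondrial DNA upkeep and transcription rose with none falling. CS, citrate synthase, rose by 0.50 (SE 0.06) and LRPPRC, which stabilises mitochondrial mRNA, by 0.50 (SE 0.05). Of 48 assembly factors 10 rose and 4 fell, led by COX20, a chaperone of a complex IV subunit, with 1.15 (SE 0.06, adjusted p = 4.01e-05). Of 20 glycolysis genes 7 rose and 2 fell, of 11 genes of coenzyme Q synthesis 3 rose and 0 fell, and of 17 hypoxia targets 1 rose and 9 fell. Of 10 electron carriers and carriers of adenine nucleotides, 2 rose and 3 fell.

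At replicative 144 h against T0, where 28.6 percent of all features fell and 30.1 percent rose, 51 of 74 mitochondrial ribosomal proteins fell and 2 rose (median -0.30), and 48 fell and 2 rose after quantile normalization. The citric acid cycle list had 9 of 15 falling and 1 rising, mitochondrial DNA upkeep 9 of 15 and 1, glycolysis 15 of 20 and 3, the assembly factors 18 of 48 and 8, and the electron carriers 6 of 10 and 2. After quantile normalization these lists had, in the same order, 9, 10, 14, 16 and 5 falling and 3, 1, 3, 9 and 2 rising. TFAM, the packaging and transcription factor of mitochondrial DNA, fell by 0.85 (SE 0.08) and IDH3A, of the citric acid cycle, by 1.15 (SE 0.07). At 2112 h against 144 h, where 29.8 percent of all features rose and 30.9 percent fell, 48 mitochondrial ribosomal proteins rose and 2 fell, 15 of 20 glycolysis genes rose and 3 fell, and of 10 electron carriers 3 rose and 3 fell. The citric acid cycle list had 9 of 15 rising and 1 falling, and mitochondrial DNA upkeep 11 of 15 and 1. After quantile normalization 44 ribosomal proteins rose and 5 fell, and 14 glycolysis genes rose and 4 fell. The citric acid cycle list then had 9 and 2, and mitochondrial DNA upkeep 10 and 1. Of 8 measured regulators of the chain, 4 fell and 0 rose at 144 h against T0, and 4 rose and 0 fell at 2112 h against 144 h. GABPB1, a subunit of GABP, fell by 0.70 (SE 0.07) and ESRRA by 0.40 (SE 0.05) at 144 h against T0. They rose by 0.50 and 0.40 at 2112 h against 144 h. At RAF 96 h 2 of the 8 regulators rose and 1 fell, where GABPB1 rose by 0.55 (SE 0.09, adjusted p = 0.00418) and YY1 fell by 0.25 (SE 0.05). At 792 h against T0, where 13.1 percent of all features rose and 11.7 percent fell, 13 mitochondrial ribosomal proteins rose and 14 fell. In the same comparison 6 of 15 genes of the citric acid cycle list fell with 2 rising, and 7 of 10 electron carriers fell with 2 rising.

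Promoters of the chain genes were searched for the letters of motifs of NRF1 (GCGCATGCG), ETS factors such as GABP (CCGGAAGT) and YY1 (AAGATGGC) on both strands. The window ran from 250 bases before to 50 after the start of each gene in the RefSeq promoter table (GRCh38.p14), which held 59 of the 74 genes. The NRF1 letters stood in 10 of 59 chain promoters (16.9%), against 573 of 27305 promoters in all (2.1%). Those of ETS factors stood in 7 of 59 (11.9%), against 4.44% of all, and those of YY1 in 10 of 59 (16.9%), against 3.03%. Any of the 3 stood in 24 of 59 (40.7%), against 8.93% of all promoters. In 69 promoters of the mitochondrial ribosome list the share with any of the 3 was 40.6%, with the NRF1 letters in 4.35%, those of ETS factors in 15.9% and those of YY1 in 29%, so that the shares for ETS factors and YY1 were higher there than among the chain genes. The NRF1 letters overlap their own reverse complement, so that a longer palindrome counts once per promoter. A match is a description of letters and says nothing of binding in these cells, and a promoter without one may still be bound.

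Stretches of 6 of these promoters are shown because the genes moved in different ways in the comparisons above, with the matched letters in capitals, read 5′ to 3′ on the strand of the gene. Of their genes, ATP5F1C, ATP5PF and COX5B fell and NDUFS6 rose at replicative 144 h against T0, SDHD fell at RAF 12 h, and NDUFB4 rose at 792 h. The stretches lie at chr10:7788135-7788176 (plus strand), chr21:25735146-25735194 (minus), chr2:97646005-97646052 (plus), chr5:1801341-1801389 (plus), chr11:112086743-112086791 (plus) and chr3:120596157-120596205 (plus) of GRCh38.p14, all within the bases upstream of the start.
ATP5F1C: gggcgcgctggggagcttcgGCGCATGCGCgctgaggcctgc
ATP5PF: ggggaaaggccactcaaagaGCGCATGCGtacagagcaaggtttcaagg
COX5B: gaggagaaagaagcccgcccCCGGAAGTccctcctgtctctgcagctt
NDUFS6: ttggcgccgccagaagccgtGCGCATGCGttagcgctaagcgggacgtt
SDHD: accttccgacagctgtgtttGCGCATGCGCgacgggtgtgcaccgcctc
NDUFB4: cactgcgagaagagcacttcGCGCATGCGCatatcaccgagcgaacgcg
Within these stretches ATP5F1C, SDHD and NDUFB4 carry the palindrome, ATP5PF and NDUFS6 the shorter NRF1 letters and COX5B an ETS motif. Outside them, the searched window also holds the ETS letters in SDHD, the YY1 letters in ATP5PF and a further ETS match in COX5B. The NRF1 letters were held by genes that fell (ATP5F1C, ATP5PF) and by a gene that rose (NDUFS6) in the same comparison. That mix follows from how the genes were chosen, and the part of NRF1 was not tested.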

How the data were processed

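RNA of 30 WI-38 samples was hybridised to HTA 2.0 arrays, 1 array a sample. The deposited series table holds log2-scale values of 52329 features. They are rounded to 0.1, run from -1.6 to 14 and have a median of 5.5 in every array. The log base is taken as 2 because the values run like those of usual array summaries, while how they were summarised and normalized is not given in the sources used here. Fold changes rest on that base.

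Groups came from the labels. limma 3.58.1 in R 4.3.3 was fitted to the deposited log2 values of all features with a mean per group, in the 12 RAF arrays, the 18 replicative arrays or, for comparisons across the courses, all 30, with 6, 9 and 15 residual degrees of freedom. The p-values are two-sided and were adjusted by Benjamini-Hochberg over all features, with a threshold of 0.05, and 2 arrays a group limit the precision. The members and lists were chosen with earlier results of these data known. Genes named are the 5 largest rises and falls past the threshold in each comparison, isoform sets, complex II and core subunits, CYC1, and up to 2 genes a direction from each list. Others were chosen after their values were seen. Probe names came from the platform annotation, and promoters from RefSeq (GRCh38.p14). The fit was tested on simulated data.

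Replicate numbers were not treated as pairs in the main fits. Deviations of same-numbered arrays correlated at -0.062 to 0.358 between RAF groups (median 0.02) and -0.277 to 0.312 between replicative groups (median 0.026). The correlation was over 0.1 in 3 of 15 pairs of RAF groups and in 9 of 36 pairs of replicative groups, so some shared structure may remain. The alternatives were a replicate block, a model of all arrays, quantile normalization, leaving out features with a mean under 5, a trended prior, averaging the features of a gene, and leaving out each array.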

Additional observations from a re-analysis of the deposited data

Results flagged for a closer look

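The effects at the ends of the courses, RAF 96 h against T0 and replicative 2112 h against T0, differed by a test of the difference itself in 10 of the 74 chain genes. Higher RAF effects were found for NDUFA9 (difference 0.45), NDUFB11 (0.45), NDUFAB1 (0.40), ATP5F1A (0.35), NDUFB9 (0.35) and COX7A2 (0.35). Lower RAF effects were found for COX7A1 (-0.70), NDUFA2 (-0.30), COX7A2L (-0.30) and SDHD (-0.25). The share of all features past this test was 7.00 percent with a higher and 6.66 percent with a lower RAF effect, against 8.11 and 5.41 percent of the chain genes. In all, 13.5 percent of the chain genes passed, close to the 13.7 percent of all features. Omitting single arrays ended the calls of 5 of the 10 in some fits, namely those of COX7A2, COX7A2L, NDUFA2, NDUFAB1 and SDHD. With 2 arrays in each group, single outlying arrays could not be looked for.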

How the results depend on the processing

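None of the 239 calls of single chain genes changed sign under the alternatives. Quantities near 0 did under quantile normalization: the median difference between RAF T0 and replicative T0 was 0.0408 (-0.05 as deposited), and the mean level of the 74 genes was 0.0131 at RAF 72 h (-0.0056 as deposited), -0.0216 at replicative T0 (0.0018), 0.0067 at 432 h (-0.005), -7e-04 at 624 h (0.0045) and -0.0158 at 2112 h (0.0119). Of 130 counts and levels under alternatives other than omitted arrays, 126 stayed within 1.5 times of the reported value or within its spread. The exceptions were, with features of a mean under 5 left out, 20277 features at 144 h against T0, 20648 at 2112 h against 144 h and 17 chain genes for the endpoint difference, and a span of levels of 0.1467 after quantile normalization. Fewer features were tested under that filter. Of the 239 calls, 31 were lost under at least 1 alternative other than an omitted array: 24 under quantile normalization, 5 with the replicate block, 5 in the model of all 30 arrays (of 186 calls) and 2 with a trended prior. The cause was not tested. With the replicate number as a block, 24 chain genes passed at RAF 12 h, 19 at RAF 96 h, 36 at 144 h, 30 at 624 h, 0 at 2112 h against T0, 37 at 2112 h against 144 h, 44 between the T0 groups, 28 at 792 h, 13 at 2112 h against 1368 h, 13 for the endpoint difference, 22 over the RAF course and 65 over the replicative course. None of these moved by more than 1.5 times. With single arrays left out, chain genes passing numbered 17 to 20 at RAF 12 h, 12 to 17 at RAF 96 h, 29 to 34 at 144 h, 19 to 23 at 624 h, 0 at 2112 h against T0, 32 to 35 at 2112 h against 144 h, 40 to 42 between the T0 groups, 21 to 24 at 792 h, 3 to 10 at 2112 h against 1368 h, 7 to 9 for the endpoint difference, 14 to 19 over the RAF course and 62 to 64 over the replicative course. Features passing numbered 7663 to 7882, 4989 to 6043, 25836 to 26335, 17961 to 19180, 377 to 523, 26761 to 27880, 26289 to 26707, 10339 to 11293, 3337 to 4149, 5436 to 6186, 7169 to 8510 and 37082 to 37831 in the same order, and the span of levels was 0.1581 to 0.2324. A group left with 1 array was assumed to vary like the others. Of the 239 calls 84 were lost without at least 1 array, among them 11 of 14 at 2112 h against 1368 h, 16 of 30 at 624 h, 5 of 10 for the endpoint difference and 6 of 36 at 2112 h against 144 h. Rounding to 0.1 limits differences of 1 or 2 steps.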
